A study of Mus musculus with 12 samples.

Results

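Transcripts of metallothioneins and zinc transporters were measured in bone marrow-derived macrophages (BMDMs) exposed to particulate matter (PM). The set is the 8 mouse genes Mt1, Mt2, Mtf1, Slc30a1, Slc30a4, Slc39a1, Slc39a14 and Slc39a10, chosen by symbol as genes of the response to metals, of 48795 genes listed. The choice was made with earlier results of these data known, so the counts over the set are descriptive. RNA of 12 libraries was sequenced, 2 for each of 6 groups. BMDMs from WT mice and from Acod1-/- mice received vehicle, PM at 20 μg/cm2 for 24 hours, or 4-octyl itaconate (OI) at 0.25 mM for 2 hours and then the same PM (OI+PM). PM was an urban dust standard, and OI is a derivative of itaconate that enters cells. Acod1 encodes the mitochondrial enzyme that makes itaconate. Per the labels the strain is C57BL/6, and the study's methods give C57BL/6NJ mice and the knockout line C57BL/6NJ-Acod1em1(IMPC)J/J, all young adult males, whose marrow cells were grown with M-CSF. No group received OI without PM, so OI could be compared only on top of PM. The sources do not say whether the 2 libraries of a group came from separate animals or cultures, so the p-values measure the spread between these libraries, which may be technical.

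Zinc is held at very low free levels in the cytosol. Metallothioneins (Mt1, Mt2) are small cysteine-rich proteins that bind zinc, copper and cadmium. MTF-1, the product of Mtf1, is a transcription factor that senses zinc and binds metal response elements in the promoters of Mt1, Mt2 and Slc30a1. Transporters of the ZnT family (Slc30a) move zinc out of the cytosol, across the plasma membrane for ZnT1 (Slc30a1) and into vesicles for ZnT4 (Slc30a4). Transporters of the ZIP family (Slc39a) move zinc into the cytosol, and ZIP14 (Slc39a14) also carries iron and manganese.

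The promoters of Mt1, Mt2 and Slc30a1 are shown, picked as those of the members that rose most. The windows came from RefSeq on GRCm38.p6 and ran from 250 bases before an annotated start to 50 bases from it. Of the 8 members, 7 had a window, and Slc39a14 was the member without one. The search was for the metal response element core (MRE, TGCACNC or TGCGCNC) and the antioxidant response element core (ARE, TGACNNNGC, the element bound by NRF2), on both strands. The 250 bases upstream of the start are printed 5′ to 3′ on the strand of the gene, with matches in capitals. Mt1 lies at chr8:94178839-94179088 (+), Mt2 at chr8:94172368-94172617 (+) and Slc30a1 at chr1:191906531-191906780 (+).
Mt1: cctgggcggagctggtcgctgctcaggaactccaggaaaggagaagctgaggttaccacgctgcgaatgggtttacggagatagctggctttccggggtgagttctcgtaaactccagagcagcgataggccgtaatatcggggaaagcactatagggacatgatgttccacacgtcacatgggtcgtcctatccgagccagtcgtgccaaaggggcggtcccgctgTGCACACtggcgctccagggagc
Mt2: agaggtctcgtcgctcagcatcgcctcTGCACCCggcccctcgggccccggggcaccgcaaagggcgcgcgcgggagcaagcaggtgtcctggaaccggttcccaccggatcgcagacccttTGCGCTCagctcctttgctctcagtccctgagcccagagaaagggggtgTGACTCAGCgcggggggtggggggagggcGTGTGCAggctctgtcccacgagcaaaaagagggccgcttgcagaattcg
Slc30a1: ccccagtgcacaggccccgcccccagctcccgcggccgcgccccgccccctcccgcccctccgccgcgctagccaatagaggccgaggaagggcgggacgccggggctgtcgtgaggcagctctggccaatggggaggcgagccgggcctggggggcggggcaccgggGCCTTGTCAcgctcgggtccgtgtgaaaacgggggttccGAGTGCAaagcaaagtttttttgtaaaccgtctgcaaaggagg

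Over the whole window, Mt2 had 4 MRE matches, at -223, -128, -50 and 5 from the start, and 1 ARE match at -79, TGACTCAGC. Mt1 had 3 MRE matches, 1 of them upstream at -23 and the others at 3 and 21, and 0 ARE matches. Slc30a1 had 2 MRE matches, at -43 and 31, and 1 ARE match at -82, and both upstream matches lie on the opposite strand. Of 32851 mouse windows of this length, 25.7% held at least 1 MRE match, 7.11% at least 2, 1.97% at least 3 and 0.517% at least 4, and 12.4% held an ARE match. Among the other members, Slc30a4 had 3 MRE matches, Slc39a1 had 0 and 1 ARE match, and neither Mtf1 nor the 2 windows of Slc39a10 had a match of either kind. A match is a run of letters and was not tested as a binding site, and the windows follow annotated starts, which may not be the starts used in BMDMs.

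Each library held between 33616577 and 36817898 counts on genes, and 11228 genes were tested. CPM is the count of a gene scaled to the total of its library, and genes with a CPM over 1.5 in 2 or more libraries entered the test. All 8 members were tested, and none fell below 15.8 normalized CPM in any library, so none entered through the group in which it was high. Acod1, the targeted gene, had 69 and 98 reads in vehicle-treated WT BMDMs and 46 and 44 in the libraries labelled Acod1-/-, and with PM it had 6346 and 5908 reads against 3660 and 3271. Counts per gene do not tell an intact from a disrupted transcript, so Acod1 reads do not check the genotype labels. The 8 macrophage markers were above 10 CPM in every library, with a summed level of 14278 to 27341 CPM. The highest was Lyz2, with a mean of 9992 CPM with vehicle and 19460 with PM in WT, and 9129 and 19620 in Acod1-/-. From PM to OI+PM, mean Fcgr1 fell from 106.5 to 28.04 in WT and from 118.8 to 26.9 in Acod1-/-. Mertk fell from 72.58 to 33.74 and from 83.76 to 39.99, and Cd68 was at 1543 and 1784, and 1384 and 1377. Lyz2 fell as well, to 10830 and 10470. With vehicle, PM and OI+PM in turn, Adgre1 was at 1330, 1445 and 931.5 in WT and 1823, 2080 and 1400 in Acod1-/-. Cd14 was at 173.2, 259.3 and 153.8, and at 272.6, 370.7 and 128.7. Csf1r was at 1018, 1532 and 1249, and at 1094, 1748 and 1248. Itgam was at 432.9, 571.5 and 523.2, and at 411.4, 527.2 and 510.7. Adgre1 was thus higher in Acod1-/- throughout, and Cd14 with vehicle and PM. The part of these moves and differences in the results was not tested. B cell, T and NK cell, dendritic, mast cell and erythroid markers each summed to under 1 CPM in every library, and fibroblast and endothelial markers to at most 2.34 and 2.68 CPM. Of the endothelial markers, Kdr was at 0.77 and 0.74 CPM with vehicle, 1.57 and 1.53 with PM and 0.51 and 0.68 with OI+PM in WT. In Acod1-/- the Kdr levels overlapped, at 0.71 and 0.61, 1.03 and 0.69, and 0.78 and 0.55 in the same order. Mean Pecam1 was instead lower with PM than with vehicle, at 0.416 against 0.573 in WT and 0.508 against 1.16 in Acod1-/-. Cdh5 overlapped between vehicle and PM in both genotypes. The part of these markers in the results was not tested. Replicates differed more in some groups than in others. The chi-square per gene between replicates was 58.5 in OI+PM-treated WT BMDMs and 27.3 in PM-treated WT BMDMs, against 2.61 to 8.32 in the other 4 groups. In these 2 WT groups, the log2 difference between replicates had a Spearman's rho of -0.61 and -0.60 with exonic length across 11208 genes, given as a description. In Acod1-/- BMDMs it was 0.36 with PM and -0.29 with OI+PM. With vehicle it was -0.28 in WT and 0.08 in Acod1-/-. For the members, many of the results that rest on libraries of these 2 WT groups are given with and without them, but not all.

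The number of members that changed with PM was 6 of 8 in WT BMDMs, 4 higher and 2 lower, against 24.8% of all genes tested (12.6% higher and 12.2% lower). A change here means an adjusted p of 0.05 or less, from the quasi-likelihood test of edgeR with p-values adjusted after Benjamini-Hochberg over all genes. The number was also 6 of 8 in BMDMs labelled Acod1-/-, 4 higher and 2 lower, against 23.9% of all genes (12% higher and 11.9% lower). In bulk RNA, a lower level can mean less RNA per cell or fewer cells of a type, and these cannot be told apart. In both genotypes, Mt1, Mt2, Slc30a1 and Slc39a1 rose, and Slc30a4 and Slc39a10 fell. Mt1 and Mt2 were the members that met the threshold of the study for a differentially expressed gene (DEG), which adds a change of at least 2-fold and was met by 4.15% of genes in WT and 4.5% in Acod1-/-. The median log2 fold change of the 8 members was 0.06 in WT and 0.13 in Acod1-/-, beside 0.01 and 0.00 for all genes.

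**Figure D1:**
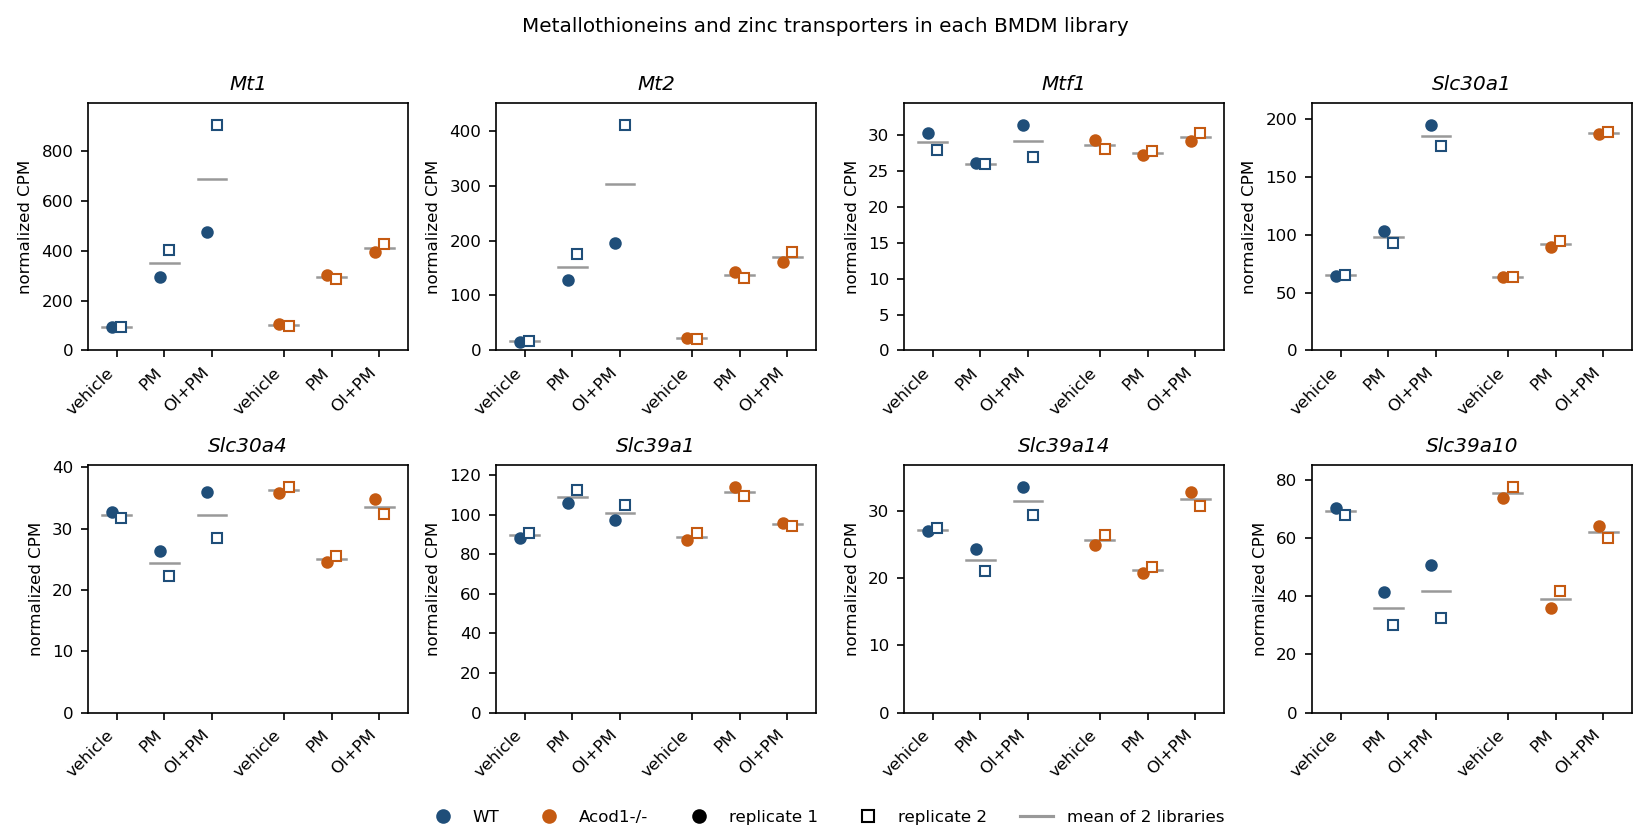
Normalized CPM (y axis, linear from 0, a scale for each gene) of the 8 members in each library, by treatment (x axis) and genotype (color), with circles for replicate 1, squares for replicate 2 and a bar at their mean. Within each genotype, every PM library lay above every vehicle library for Mt1, Mt2 and Slc30a1, and every OI+PM library above every PM library. Mt1 in OI+PM-treated WT BMDMs was 476 in replicate 1 and 904 in replicate 2.

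Mt1 (ENSMUSG00000031765.8, chr8:94179082-94180327 of GRCm38, exons overlapping no other gene) encodes the more abundant of the metallothionein transcripts. Its normalized CPM was 93.0 and 96.0 in vehicle-treated WT BMDMs, 296 and 403 with PM, and 476 and 904 with OI+PM. In the libraries labelled Acod1-/- it was 104 and 97.4 with vehicle, 301 and 287 with PM, and 394 and 427 with OI+PM. All PM-treated libraries lay above all vehicle-treated libraries. The rise with PM was 3.70-fold in WT (log2 fold change 1.89, SE 0.248, adjusted p = 0.000451, edgeR) and 2.92-fold in Acod1-/- (log2 fold change 1.54, SE 0.246, adjusted p = 0.00136, edgeR).

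Mt2 (ENSMUSG00000031762.7, chr8:94172664-94173568) encodes the other main metallothionein and started from a lower level. Its normalized CPM was 15.8 and 16.7 with vehicle, 129 and 176 with PM and 195.2 and 409.7 with OI+PM in WT BMDMs. In the libraries labelled Acod1-/- it was 23.2 and 21.7 with vehicle, 142 and 132 with PM, and 160 and 180 with OI+PM. The groups with vehicle and with PM were far apart in both genotypes. PM raised Mt2 9.35-fold in WT (log2 fold change 3.23, SE 0.302, adjusted p = 4.93e-05, edgeR) and 6.12-fold in Acod1-/- (log2 fold change 2.61, SE 0.294, adjusted p = 0.000141, edgeR). An exon of Gm45774 on the opposite strand overlaps Mt2, and whether the counting used strand is not given in the sources used here, so reads of the pair cannot be told apart. Mt1 and Mt2 are also close in sequence, and how reads that fit both were counted is not given either.

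Mt2 took up a larger share of metallothionein reads after PM. In vehicle-treated BMDMs there were 0.170 and 0.174 Mt2 reads per Mt1 read in WT, and 0.222 in each library labelled Acod1-/-. With PM the ratio was 0.434 and 0.436 in WT and 0.472 and 0.459 in Acod1-/-, and with OI+PM it was 0.410 and 0.453 in WT and 0.408 and 0.421 in Acod1-/-. The ratio with vehicle thus did not overlap that in either treatment, while PM and OI+PM overlapped in WT. Both transcripts are short, and among the 746 tested genes with at most 1500 exonic bases the median log2 CPM was higher in replicate 2 than in replicate 1 by 0.28 in PM-treated and 0.47 in OI+PM-treated WT BMDMs. The same differences were 0.44 and 0.93 for Mt1 and 0.45 and 1.07 for Mt2 (the values under a correction for gene length stand with the OI results). Of 6 neutrophil and progenitor markers, whose summed level was 4.86 to 61 CPM, 2 exceeded 1 CPM in any library, and their levels moved with treatment. S100a8 was at 4.46 and 3.64 CPM with vehicle, 9.97 and 15.25 with PM and 28.8 and 60.5 with OI+PM in WT, and at 3.86 and 3.53, 13.9 and 11.7, and 31.6 and 32.6 in Acod1-/-. S100a9 was at 0.94 and 1.1 CPM with vehicle, 1.26 and 2.16 with PM and 0.42 and 0.47 with OI+PM in WT, and at 1.34 and 1.31, 3.23 and 3.31, and 1.02 and 1.05 in Acod1-/-. Both were thus above vehicle with PM in each genotype, and with OI+PM S100a8 was above and S100a9 below the PM-treated libraries. S100a9 exceeded a CPM of 1.5 only in PM-treated libraries and is given without a test. The defining markers Ly6g, Mpo, Elane and Camp stayed under 1 CPM in every library, with at most 1 read of Ly6g. Camp had 1 and 0 reads with vehicle, 5 and 4 with PM and 1 and 0 with OI+PM in WT. In Acod1-/- it had 3 and 1, 5 and 8, and 1 and 0 reads in the same order. The part of other cells in the result was not tested further.

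Mtf1 (ENSMUSG00000028890.13, chr4:124802104-124849800), the metal-sensing regulator, had normalized CPM between 26.0 and 31.4 in all 12 libraries. With PM its log2 fold change was -0.16 in WT (95% interval -0.35 to 0.03, adjusted p = 0.182, edgeR) and -0.06 in Acod1-/- (95% interval -0.25 to 0.13, adjusted p = 0.612, edgeR). The vehicle-treated and PM-treated libraries did not overlap, at 30.3 and 27.9 against 26.1 and 26.0 in WT, but the difference did not pass the test. Exons of 1110065P20Rik on the opposite strand overlap Mtf1, and a transcript level does not show the activity of the protein.

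Slc30a1 (ENSMUSG00000037434.7, chr1:191906767-191913247) encodes ZnT1, the exporter of zinc at the plasma membrane. Its replicates were close in every group, with 64.7 and 65.0 normalized CPM with vehicle, 103 and 92.4 with PM and 194.5 and 176.3 with OI+PM in WT BMDMs. In the libraries labelled Acod1-/- it was 63.1 and 63.8, 89.2 and 94.9, and 187 and 188, in the same order. The 3 treatments did not overlap in either genotype. The rise with PM was 1.51-fold in WT (log2 fold change 0.59, SE 0.0745, adjusted p = 0.000326, edgeR) and 1.45-fold in Acod1-/- (log2 fold change 0.54, SE 0.0746, adjusted p = 0.000573, edgeR). Exons of 1700034H15Rik on the opposite strand overlap Slc30a1.

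Slc30a4 (ENSMUSG00000005802.12, chr2:122681233-122702663) encodes ZnT4, which loads zinc into vesicles, and it fell with PM while the exporter rose. Its normalized CPM in WT was 32.8 and 31.7 with vehicle and 26.3 and 22.3 with PM, and in Acod1-/- it was 35.9 and 36.7 with vehicle and 24.6 and 25.6 with PM. The PM-treated libraries lay below the vehicle-treated ones in both genotypes, with log2 fold changes of -0.41 in WT (SE 0.113, adjusted p = 0.0286, edgeR) and -0.53 in Acod1-/- (SE 0.113, adjusted p = 0.00731, edgeR). Exons of 4930417H01Rik on the opposite strand overlap it.

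The importers did not move in a single direction. Slc39a1 (ENSMUSG00000052310.9, chr3:90248172-90253612), which encodes the widely expressed ZIP1, rose from 88.3 and 90.6 normalized CPM to 106 and 112 with PM in WT, and from 86.9 and 90.8 to 114 and 110 in Acod1-/-. These are small changes with tight replicates, with log2 fold changes of 0.29 (SE 0.0648, adjusted p = 0.0112, edgeR) and 0.33 (SE 0.0648, adjusted p = 0.00481, edgeR). The correction for gene length ended the call in WT, at 0.12 (adjusted p = 0.133, edgeR). Slc39a10 (ENSMUSG00000025986.6, chr1:46807544-46892852) encodes ZIP10, an importer of the plasma membrane, and showed the largest decrease among the members. It went from 70.5 and 68.1 to 41.5 and 30.3 normalized CPM with PM in WT, and from 73.7 and 77.5 to 36.1 and 41.8 in Acod1-/-. Its level was 1.93-fold lower with PM in WT (log2 fold change -0.95, SE 0.194, adjusted p = 0.00659, edgeR) and 1.94-fold lower in Acod1-/- (log2 fold change -0.96, SE 0.193, adjusted p = 0.00551, edgeR), which is short of the 2-fold threshold of a DEG. It passed that threshold under total count scaling, at -1.04 in WT and -1.03 in Acod1-/-, without WT PM replicate 1, at -1.20 (adjusted p = 0.00638, edgeR), and without Acod1-/- PM replicate 2, at -1.07 (adjusted p = 0.0254, edgeR).

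Slc39a14 (ENSMUSG00000022094.15, chr14:70303469-70351425), which encodes ZIP14, was at 27.0 and 27.5 normalized CPM with vehicle and 24.28 and 21.01 with PM in WT. In Acod1-/- it was at 24.8 and 26.4 with vehicle and 20.7 and 21.6 with PM. The groups did not overlap in either genotype, but the log2 fold changes of -0.26 (adjusted p = 0.064, edgeR) and -0.28 (adjusted p = 0.0582, edgeR) did not pass the threshold.

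The calls for Mt1, Mt2 and Slc30a1 held whichever of the libraries of the comparison was left out. Leaving out replicate 2 of PM-treated WT BMDMs left 3 members called in WT in place of 6, namely Mt1, Mt2 and Slc30a1, and 12.4% of all genes in place of 24.8%, and the log2 fold changes of Mt1 and Mt2 were then 1.65 and 2.98. Without that library Slc30a4 was at -0.29 (adjusted p = 0.206, edgeR), Slc39a1 at 0.24 (adjusted p = 0.0789) and Slc39a10 at -0.74 (adjusted p = 0.0561). Leaving out either vehicle-treated WT library also ended the calls of Slc30a4 and Slc39a1 in WT, with adjusted p from edgeR of 0.098 to 0.149 and of 0.0591 to 0.0975. In Acod1-/-, Slc30a4 lost its call without vehicle replicate 2 or PM replicate 1 (adjusted p = 0.0534 and 0.065), Slc39a1 without vehicle replicate 1 (adjusted p = 0.06) and Slc39a10 without PM replicate 1 (adjusted p = 0.0644, edgeR). Conversely, Slc39a14 in WT passed without PM replicate 1, at -0.38 (adjusted p = 0.0312, edgeR), and under total count scaling in both genotypes, at -0.36 each (adjusted p = 0.0371 and 0.039), and in Acod1-/- on the compared groups alone, at -0.27 (adjusted p = 0.00574).

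**Figure D2:**
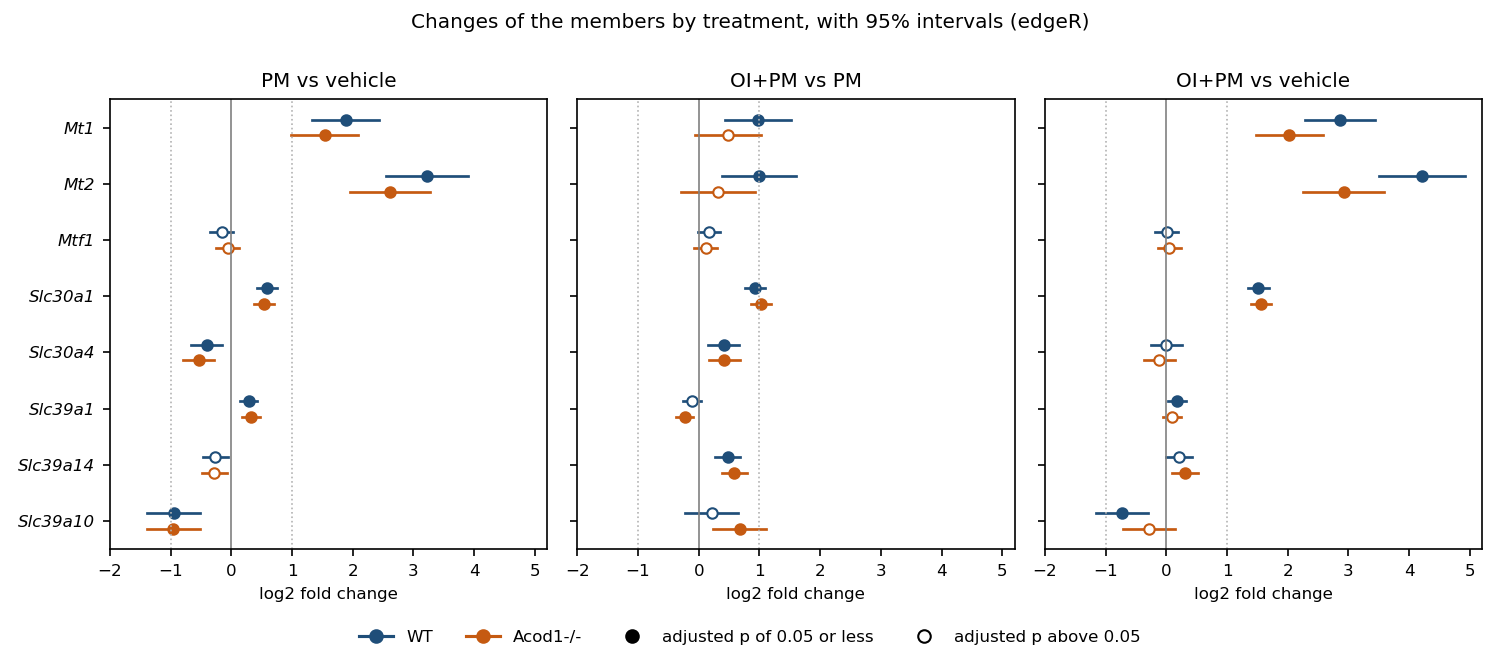
Log2 fold change (x axis) of each member (y axis) in 3 treatment comparisons, for WT and Acod1-/- BMDMs, with lines for the 95% interval from edgeR, filled points where the adjusted p was 0.05 or less, and dotted lines at a 2-fold change. Mt1 and Mt2 had the largest increases with PM and with OI+PM against vehicle, and Slc30a1 had the narrowest intervals among the members with an increase of at least 2-fold.

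OI before PM was compared with PM alone to ask whether an itaconate derivative added from outside changed the levels reached with PM. In WT BMDMs 5 of the 8 members rose with OI and 0 fell. Of all genes 43.9% changed, 21.3% higher and 22.6% lower, and 10.8% were DEGs. In BMDMs labelled Acod1-/-, 4 rose and 1 fell, where 34.6% of all genes changed, 13.9% higher and 20.6% lower, and 9.83% were DEGs. Slc30a1, Slc30a4 and Slc39a14 rose in both genotypes. The median log2 fold change of the members was 0.44 in WT and 0.45 in Acod1-/-, beside 0.02 and 0.00 for all genes.

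The exporter Slc30a1 had the firmest increase with OI. Its level, given above, rose 1.90-fold in WT (log2 fold change 0.92, SE 0.0743, adjusted p = 4.98e-06, edgeR) and 2.04-fold in Acod1-/- (log2 fold change 1.03, SE 0.0744, adjusted p = 2.42e-06, edgeR), where it was the 1 member to reach the DEG threshold. With any 1 library of the comparison left out, the log2 fold change was at least 0.84 in WT and at least 0.98 in Acod1-/-, and passed the test each time. The DEG call in Acod1-/- was lost without PM replicate 1, at 0.98, and under total count scaling, at 0.96.

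Slc39a14 and Slc30a4, which had been at lower levels with PM than with vehicle, were higher with OI. Slc39a14 reached 33.5 and 29.4 normalized CPM in WT and 32.8 and 30.6 in Acod1-/-, above every PM-treated library, with log2 fold changes of 0.47 (SE 0.0934, adjusted p = 0.00251, edgeR) and 0.59 (SE 0.0937, adjusted p = 0.000756, edgeR). It passed with each library of the comparison left out in both genotypes, and lost its call in WT when edgeR was fitted on the compared groups alone (0.46, adjusted p = 0.11). Slc30a4 reached 36.0 and 28.6 in WT and 34.9 and 32.4 in Acod1-/-, with log2 fold changes of 0.41 (SE 0.114, adjusted p = 0.0158, edgeR) and 0.42 (SE 0.114, adjusted p = 0.0161, edgeR). Its call was lost in WT without PM replicate 2 (adjusted p = 0.0947) or OI+PM replicate 1 (0.23, adjusted p = 0.0681), and in Acod1-/- without either PM library or OI+PM replicate 1 (adjusted p from 0.0611 to 0.107, edgeR). It was also lost under total count scaling in both genotypes, at 0.28 and 0.35 (adjusted p = 0.117 and 0.0686), and in WT on the compared groups alone (adjusted p = 0.208). Against vehicle, the Slc30a4 level with OI+PM gave log2 fold changes of 0.00 in WT (adjusted p = 0.983, edgeR) and -0.11 in Acod1-/- (adjusted p = 0.431, edgeR), so no difference from vehicle was detected.

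With all groups in the fit, the metallothioneins passed the test with OI in WT BMDMs and not in those labelled Acod1-/-, a contrast that not every other fit kept. In WT the log2 fold changes were 0.98 for Mt1 (SE 0.241, adjusted p = 0.00852, edgeR) and 0.99 for Mt2 (SE 0.273, adjusted p = 0.0148, edgeR). In Acod1-/- they were 0.48 for Mt1 (95% interval -0.06 to 1.02, adjusted p = 0.158, edgeR) and 0.31 for Mt2 (95% interval -0.30 to 0.92, adjusted p = 0.426, edgeR), although the libraries with OI+PM lay above those with PM for both genes. The WT values rested on replicate 2 of the OI+PM group. Without that library the log2 fold changes in WT were 0.44 for Mt1 (adjusted p = 0.022, edgeR) and 0.36 for Mt2 (adjusted p = 0.0674, edgeR), and without replicate 1 they were 1.37 and 1.43. Without replicate 1 of PM-treated WT BMDMs both were 0.77 (adjusted p = 0.0666 and 0.102, edgeR), and without replicate 2 of that group they were 1.22 and 1.23. A correction for gene length gave 0.78 for Mt1 and 0.68 for Mt2 in WT, and 0.46 for Mt1 (adjusted p = 0.0111, edgeR) and 0.29 for Mt2 (adjusted p = 0.0847, edgeR) in Acod1-/-. With edgeR on the compared groups alone, neither passed in WT (adjusted p = 0.103 and 0.13), in a fit that called 17.3% of all genes. Both passed in Acod1-/- on the compared groups alone, at 0.48 and 0.32 (adjusted p = 4.53e-07 and 0.000378, edgeR), where 51.6% were called. With all groups in the fit, these shares were 43.9% and 34.6%. Without a filter both passed in Acod1-/- as well, at 0.50 and 0.33 (adjusted p = 5.69e-08 and 0.00472).

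For the importers with OI, Slc39a10 reached 64.4 and 60.0 normalized CPM in Acod1-/-, above the PM-treated libraries (log2 fold change 0.67, SE 0.193, adjusted p = 0.0215, edgeR). It was at 50.8 and 32.5 in WT, where the groups overlapped (log2 fold change 0.22, adjusted p = 0.391, edgeR). The call in Acod1-/- did not hold when any 1 of its 4 libraries was left out, with adjusted p from 0.0545 to 0.139, or under total count scaling (adjusted p = 0.0551). Slc39a1 was at 97.1 and 105 in WT and 95.7 and 94.4 in Acod1-/-, with log2 fold changes of -0.11 (adjusted p = 0.19, edgeR) and -0.23 (SE 0.0648, adjusted p = 0.0187, edgeR), the latter a call lost without any 1 of the 4 libraries (adjusted p from 0.0505 to 0.108) and without a filter (adjusted p = 0.153). In WT, leaving out OI+PM replicate 2 gave 0.50 for Slc39a10 (adjusted p = 0.0191, edgeR), and leaving out replicate 1 gave -0.14. Mtf1 had log2 fold changes of 0.17 (adjusted p = 0.138, edgeR) and 0.11 (adjusted p = 0.349, edgeR), and 0.27 in WT without OI+PM replicate 2 (adjusted p = 0.0186). Under the correction for gene length, Mtf1 passed in WT at 0.23 (adjusted p = 0.0176, edgeR) and Slc39a1 in WT at -0.21 (adjusted p = 0.0115, edgeR), and the latter also under total count scaling, at -0.24 (adjusted p = 0.0077).

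**Figure D3:**
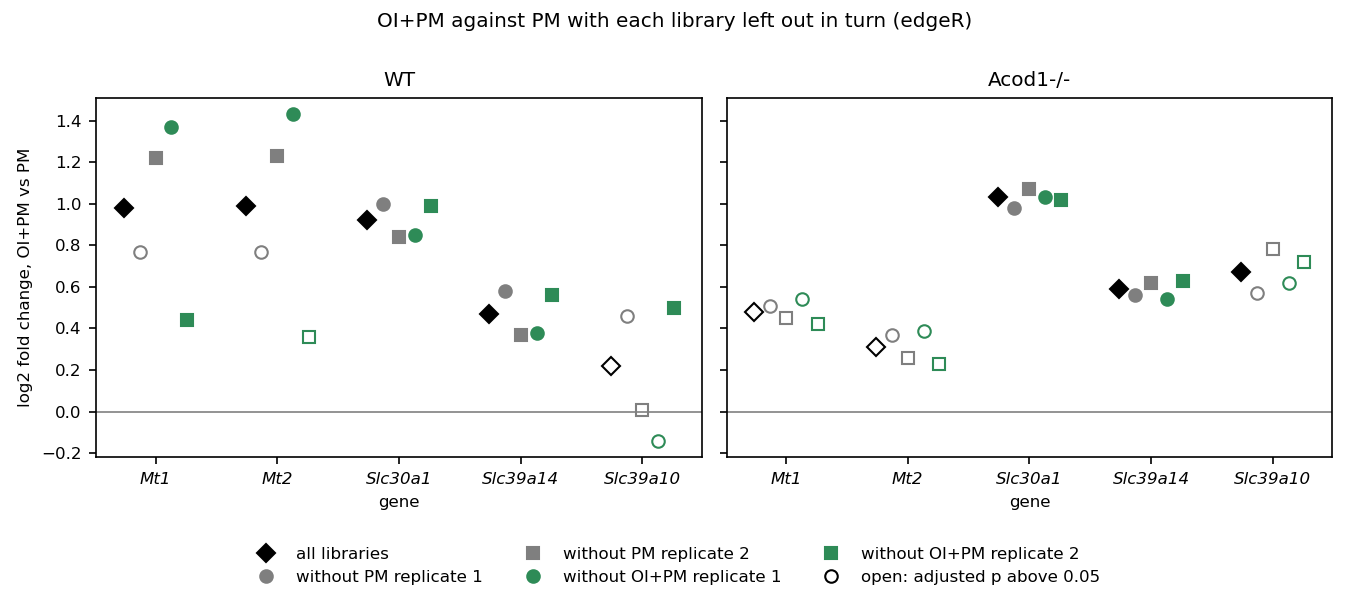
Log2 fold change of OI+PM against PM (y axis) for 5 members (x axis) in WT and Acod1-/- BMDMs, with all libraries (black diamonds) and with each library of the comparison left out, filled where the adjusted p from edgeR was 0.05 or less. In WT, Mt1 and Mt2 moved from 0.44 and 0.36 without OI+PM replicate 2 to 1.37 and 1.43 without replicate 1, while Slc30a1 was at 0.84 or above.

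The combined treatment was also set against vehicle. In WT BMDMs 4 members were higher and 1 lower with OI+PM, where 65.5% of all genes changed, 33.6% higher and 31.9% lower. In Acod1-/- 4 were higher and 0 lower, where 49.4% changed, 22.7% higher and 26.7% lower. With both directions pooled, the share of members called was close to that of all genes, with more of them higher and fewer lower. Mt1, Mt2 and Slc30a1 were DEGs in both genotypes, against 16.1% and 13.1% of all genes. Mt1 was 7.30-fold higher in WT and 4.07-fold in Acod1-/-, Mt2 18.6-fold and 7.58-fold, and Slc30a1 2.86-fold and 2.96-fold. The size in WT again varied with the OI+PM library. The log2 fold change of Mt2, 4.22 in all libraries, was 3.58 without OI+PM replicate 2, 4.65 without replicate 1 and 3.57 under the length correction, and that of Mt1, 2.87 in all, was 2.33, 3.26 and 2.39. Slc39a10 had a log2 fold change of -0.73 in WT (SE 0.193, adjusted p = 0.00771, edgeR), from -1.09 to -0.45 with an OI+PM library left out, and -0.28 in Acod1-/- (adjusted p = 0.242, edgeR). Slc39a1 passed at 0.17 in WT (adjusted p = 0.0368, edgeR), with a direction that turned to -0.05 under total count scaling and to -0.09 under the length correction, and it was lost without either vehicle library or OI+PM replicate 2 (adjusted p from 0.0898 to 0.168), under both other filters and without a filter (adjusted p from 0.0614 to 0.261), and on the compared groups alone (adjusted p = 0.223). Slc39a14 passed at 0.31 in Acod1-/- (adjusted p = 0.0196, edgeR), and not without either vehicle library or OI+PM replicate 1 (adjusted p from 0.0529 to 0.123) or under total count scaling, at 0.16 (adjusted p = 0.239). The length correction also made Mtf1 pass, at 0.24 in WT and 0.21 in Acod1-/- (adjusted p = 0.00896 and 0.0241, edgeR), and Slc39a14 in WT, at 0.52 (adjusted p = 2.62e-05, edgeR). The treatment comparisons share libraries, so their values are not independent of each other.

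Genotype was compared within each treatment, to ask whether the levels differed in the libraries labelled Acod1-/-. With edgeR, 0 of the 8 members passed with vehicle, with PM or with OI+PM, against 1.83%, 2.4% and 6.96% of all genes. At an unadjusted p under 0.05 the numbers were 0, 0 and 3, against 10.2%, 14% and 29.2% of all genes. DESeq2 called 0, 0 and 3, against 2.73%, 3.87% and 11.8%. With edgeR on the vehicle groups alone, 3 were higher in Acod1-/-, Mt2 at 0.45, Slc30a4 at 0.16 and Slc39a10 at 0.12 (adjusted p = 1.66e-06, 0.0152 and 0.0387), in a fit that called 20.6% of all genes. The 3 genes of DESeq2, with OI+PM, were Mt1 at -0.75 (95% interval -1.29 to -0.21, adjusted p = 0.0858, edgeR), Mt2 at -0.83 (95% interval -1.44 to -0.22, adjusted p = 0.0907, edgeR) and Slc39a10 at 0.58 (95% interval 0.14 to 1.01, adjusted p = 0.0954, edgeR). The same library decided their size. Without replicate 2 of OI+PM-treated WT BMDMs the log2 differences were -0.21, -0.20 and 0.29, and without replicate 1 they were -1.14, -1.27 and 0.94.

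With PM alone, the difference between the genotypes was -0.25 for Mt1 (95% interval -0.78 to 0.29), -0.15 for Mt2 (95% interval -0.76 to 0.46) and -0.09 for Slc30a1 (95% interval -0.25 to 0.08). The libraries of the genotypes overlapped for each of these genes. Mt1 was at 296 and 403 normalized CPM in WT and 301 and 287 in Acod1-/-, so the size of its difference depended on WT replicate 2. With vehicle, Mt2 was higher in both libraries labelled Acod1-/- than in the WT libraries, with a log2 difference of 0.46 (95% interval -0.19 to 1.12, adjusted p = 0.763, edgeR).

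The difference between the genotypes in the effect of a treatment was tested as an interaction, and 0 of the 8 members passed, as did 0 of all genes (0%), for either treatment. At an unadjusted p under 0.05 there were 0 members for PM and 0 for OI, against 2.43% and 6.39% of all genes, and DESeq2 also called 0 and 0. The effect of PM differed by -0.34 for Mt1 (95% interval -1.11 to 0.42) and by -0.61 for Mt2 (95% interval -1.5 to 0.28), Acod1-/- minus WT. That of OI differed by -0.50 for Mt1 (95% interval -1.25 to 0.26), by -0.68 for Mt2 (95% interval -1.54 to 0.18) and by 0.46 for Slc39a10 (95% interval -0.15 to 1.07). For Slc30a1 the intervals were narrow, from -0.29 to 0.18 for PM and from -0.13 to 0.34 for OI. The intervals of the metallothioneins are wide, so a smaller effect in one genotype cannot be told from an equal one. The sizes for PM are given with all libraries only, and they rest on PM-treated WT replicates that differed for both metallothioneins. The interactions of OI with genotype passed when replicate 1 of OI+PM-treated WT BMDMs was left out, at -0.89 for Mt1, -1.12 for Mt2 and 0.82 for Slc39a10 (adjusted p = 0.0355, 0.024 and 0.047, edgeR), in a fit that called 4.68% of all genes, and were 0.04, -0.05 and 0.17 without replicate 2.

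Levels can be set beside each other between genes only per length. Per kilobase of the principal transcript, Mt1 led in vehicle-treated WT BMDMs at 172 ± 3.82 normalized CPM per kilobase (SD, n = 2), followed by Slc39a1 at 37.8 ± 0.704 and Mt2 at 31.8 ± 1.25. Slc39a10 at 12.6 ± 0.312 and Slc30a1 at 12.4 ± 0.0394 did not differ beyond their spread. Slc30a4 at 5.91 ± 0.142 and Slc39a14 at 5.52 ± 0.0722 lay close together, apart by more than their SDs. Mtf1 was lowest at 3.81 ± 0.22. With PM the order in WT was Mt1 at 637 ± 138, Mt2 at 298 ± 65.1, Slc39a1 at 46.1 ± 1.89, Slc30a1 at 18.7 ± 1.47 and Slc39a10 at 6.53 ± 1.44, so that Mt2 stood above Slc39a1 and Slc30a1 above Slc39a10. Slc39a14 at 4.6 ± 0.469 and Slc30a4 at 4.46 ± 0.518 did not differ beyond their spread. With OI+PM in WT, Mt1 was at 1256 ± 551 and Mt2 at 592 ± 297, and Slc30a1 at 35.4 ± 2.46 came close to Slc39a1 at 42.7 ± 2.35. In Acod1-/- the order with PM was that of WT, except that Slc30a4 at 4.6 ± 0.128 stood above Slc39a14 at 4.29 ± 0.125, and Mt2 was already above Slc39a1 with vehicle, at 43.9 ± 2.11 against 37.6 ± 1.16. The order depends on the length taken. Per kilobase of all annotated exons, Mt1 was at 75.8 in vehicle-treated WT BMDMs, Slc39a14 at 2.58 was below Mtf1 at 3.27, and Mt2 and Slc39a1 in vehicle-treated Acod1-/- BMDMs were at 38.1 and 37.6.

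The other genes of the families were examined as a list, which held 28 metallothioneins and Slc30a and Slc39a transporters, the members other than Mtf1 included, and of which 20 were tested. Mt3 and Slc39a4 passed the filter only through the treated groups and are left out of the counts. Of the other 18 genes, 6 rose and 6 fell with PM in WT, and 6 rose and 5 fell in Acod1-/-, beside 12.6% higher and 12.2% lower of all genes in WT and 12% and 11.9% in Acod1-/-. With OI+PM against PM, 7 rose and 1 fell in WT, and 6 rose and 3 fell in Acod1-/-, beside 21.3% and 22.6% of all genes in WT and 13.9% and 20.6% in Acod1-/-. The median log2 fold changes of the 18 genes with PM were -0.01 and 0.04, and with OI 0.06 and 0.05. Of the 8 genes not tested, Mt4, Slc30a8, Slc30a10 and Slc39a5 had 0 reads in all 12 libraries, which is an upper limit of 3 reads in a library by counting error alone.

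The gene of the list with the largest fold change between PM and vehicle was Slc39a4, which encodes ZIP4, the main importer of dietary zinc in the gut. It went from 15 and 17 reads to 145 and 166 with PM in WT, and from 19 and 19 to 237 and 234 in Acod1-/-. Its normalized CPM with PM was thus still low, 4.14 and 4.78 in WT and 6.97 and 6.73 in Acod1-/-. The log2 fold changes with PM were 3.41 in WT and 3.70 in Acod1-/-. They are given without a test, since all vehicle-treated libraries were below the filter and the gene entered through the groups in which it was high. With OI it fell, by 0.77 in WT and by 0.89 in Acod1-/- on the log2 scale (adjusted p = 0.00171 and 0.000394, edgeR). It was the 1 gene of the list that differed between the genotypes with PM, at 0.62 (SE 0.126, adjusted p = 0.0349, edgeR), a call that was lost when any 1 of the 4 libraries was left out (adjusted p from 0.0824 to 0.207).

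Mt3, a metallothionein best known from the brain, was at a much lower level, and it too entered the test only through the treated groups. It had 13 and 14 reads with vehicle, 71 and 94 with PM and 95 and 190 with OI+PM in WT, and 7 and 16, 55 and 41, and 79 and 63 in Acod1-/-. The log2 fold changes with PM, given without a test, were 2.74 in WT and 2.13 in Acod1-/-, the latter from 1.64 to 2.84 with a library left out. With OI in WT it was 0.95 (adjusted p = 0.0484, edgeR), and the call was lost without either PM library (adjusted p = 0.212 and 0.0627) and without OI+PM replicate 2, at 0.26 (adjusted p = 0.453, edgeR).

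Slc39a8, which encodes ZIP8, an importer of zinc and manganese close in sequence to ZIP14, ran opposite to Slc39a14 with OI. Its normalized CPM in WT was 22.6 and 22.0 with vehicle, 17.0 and 16.3 with PM and 8.98 and 9.98 with OI+PM, and in Acod1-/- it was 20.5 and 20.6, 14.5 and 16.9, and 9.29 and 9.15. Each treatment lay below the one before it in both genotypes. The log2 fold changes were -0.42 and -0.39 with PM (adjusted p = 0.00785 and 0.0115, edgeR) and -0.81 and -0.77 with OI (adjusted p = 7.51e-05 and 0.000122, edgeR), in WT and Acod1-/-. With a library left out, the calls with OI held, and those with PM were lost in 2 of 4 cases in WT and 3 of 4 in Acod1-/-, the latter also under the length correction (-0.27, adjusted p = 0.0536). Slc39a7 and Slc39a11, which encode importers of intracellular membranes, rose with OI in both genotypes, by 0.30 and 0.51 for Slc39a7 and by 0.38 in each for Slc39a11. Slc39a7 in WT did not pass under total count scaling (0.17, adjusted p = 0.0921) or the length correction (0.21, adjusted p = 0.0572), or in 1 of 4 cases with a library left out (adjusted p = 0.0561, edgeR). Slc39a13, which encodes a ZIP of the Golgi and vesicles, passed with OI in Acod1-/- at -0.52 and had -0.23 in WT (adjusted p = 0.0837, edgeR), where it passed under total count scaling (-0.36, adjusted p = 0.0119). Exons of Gm20427 on the same strand overlap Slc39a7, and exons of Psmc3 on the opposite strand overlap Slc39a13.

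**Figure D4:**
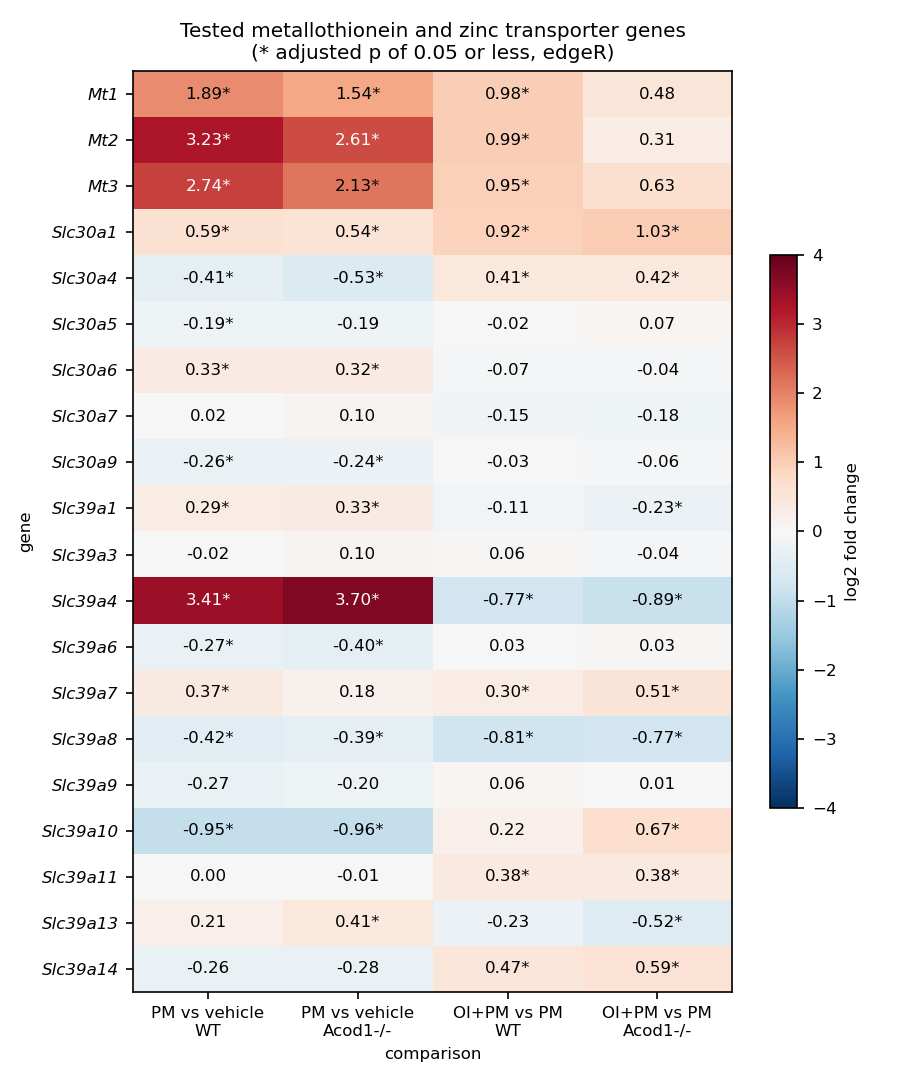
Log2 fold changes (color and number) of the 20 tested metallothionein and zinc transporter genes (rows) in 4 comparisons (columns), with a star where the adjusted p from edgeR was 0.05 or less. The 3 metallothioneins and Slc39a4 had the highest fold changes with PM (Mt3 and Slc39a4 entered only through the treated groups, so their stars against vehicle are no test), and Slc39a4 and Slc39a8 fell with OI while Slc30a1, Slc30a4 and Slc39a14 rose in both genotypes.

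Metallothioneins also bind copper, and a list of 11 copper genes was examined beside them. Of these 10 were tested, Mt1 and Mt2 among them. With PM 6 rose in WT and 5 in Acod1-/-, and 0 fell, beside 12.6% and 12% of all genes higher. Mt1 and Mt2 are counted among the risen genes in each genotype. Atp7a was lower in every PM-treated than in every vehicle-treated library within each genotype, without a call. Its log2 fold changes were -0.75 in WT and -0.51 in Acod1-/- (adjusted p = 0.202 and 0.387, edgeR). With OI 3 rose and 2 fell in WT, and 1 rose and 2 fell in Acod1-/-, which is close to the shares of all genes, 21.3% and 22.6% in WT and 13.9% and 20.6% in Acod1-/-. The genes that fell with OI were the copper transporters Slc31a1 (CTR1, the importer of the plasma membrane) and Slc31a2 (CTR2). Slc31a2 was at 53.8 and 52.8 normalized CPM with vehicle, 95.5 and 101 with PM and 54.4 and 64.1 with OI+PM in WT, and at 53.4 and 57.4, 123 and 113, and 58.1 and 60.3 in Acod1-/-. It thus rose with PM, by 0.89 and 1.09 on the log2 scale, and fell by 0.73 and by 0.99 with OI (all with adjusted p of 0.05 or less, edgeR). Slc31a1 rose by 0.43 and 0.58 with PM and fell by 0.37 and by 0.62 with OI. Sod1, the copper and zinc superoxide dismutase, rose with OI by 0.88 in WT and by 0.69 in Acod1-/-. With a library left out, the WT value was 0.53 to 1.17. Atox1, a copper chaperone, rose with PM by 0.95 and 0.93, or by 0.61 and 0.62 under the length correction. The calls of Slc31a1 and Slc31a2 held with each library left out. Those of Atox1 with PM held in 1 of 4 cases in each genotype (adjusted p up to 0.101), that of Sod1 with PM in WT in 1 of 4 (adjusted p up to 0.204), and that of Sod1 with OI in all 4 cases in WT and in 2 of 4 in Acod1-/- (adjusted p up to 0.0829, edgeR).

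Patterns across the 12 libraries were compared by Pearson's r of log2 CPM over 9571 genes, as a description, since libraries of a group share their treatment. The genes most like Mt1 were Acot7 (0.995), Txn1 (0.992), Nfkbib (0.991), Mfsd4b3 (0.99) and Agpat2 (0.989). For Slc30a1 they were Sh3tc1 and Abcc1 (0.995 each), Tiparp, Fzd1 and Serpinb9 (0.994 each), and for Slc39a14 Myo5a (0.97), Gramd4 (0.966), Ptch1 (0.963), Adipor2 (0.962) and Samd4 (0.96). By Spearman's rho the nearest genes to Mt1 were Timm9 and Mt2 (0.993 each), to Slc30a1 Flii and Mcf2l (0.993 each), and to Slc39a14 Ptch1 and Pex26 (0.972 each).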

How the data were processed

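RNA of 12 BMDM libraries was sequenced. Per the submitters' processing notes, the tools were FastQC 0.11.5, STAR 2.5.3a, Picard 2.9.0, featureCounts and DESeq2, with the build GRCm38. The authors deposited raw counts per gene, without normalization. The annotation release and strand setting are not given in the sources used here. Of 48795 Ensembl identifiers, 48349 matched a symbol. Counts above CPM 1.5 in at least 2 libraries were fitted in edgeR 4.0.16 (R 4.3.3, quasi-likelihood, TMM, 6 group means, no replicate block), and p-values were adjusted by Benjamini-Hochberg over 11228 genes. Normalized CPM are TMM-scaled. Positions and lengths came from GENCODE on GRCm38. The members and lists were chosen with earlier results of these data known. Named genes are the members, the family and copper lists, Acod1 and the 5 genes most like Mt1, Slc30a1 and Slc39a14 with a mean CPM of at least 5, and cell type markers named after their values were seen. Alternatives were DESeq2 1.42.0, other scalings, filters, a fold threshold, a length correction, a block on replicate number, and fits without each library. A library left out leaves a single one in its group, which is assumed to vary like the others.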

Additional observations from a re-analysis of the deposited data

How the results depend on the processing

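With each library left out in turn, the number of members past the threshold ranged from 3 to 7 for PM in WT, 4 to 6 for PM in Acod1-/-, 3 to 6 for OI+PM against PM in WT, 2 to 3 in Acod1-/-, 4 to 5 for OI+PM against vehicle in WT, 3 to 4 in Acod1-/-, 0 to 3 for genotype with OI+PM and 0 to 3 for the interaction with OI, and it was 0 for genotype with vehicle or PM and for the interaction with PM. The share of all genes called moved in these fits as well, so the ranges are not a result about the members. With all libraries, the DEG rule left 2, 2, 0, 1, 3 and 3 members in the 6 treatment comparisons in the order above. Of all genes it left 4.15%, 4.5%, 10.8%, 9.83%, 16.1% and 13.1%. The test against a log2 fold change of 1 left 2 and 1 for PM, beside 1.7% and 2.12% of all genes. It left 0 and 0 for OI+PM against PM, beside 6.6% and 6.2%, and 3 for OI+PM against vehicle in WT, beside 9.76%. edgeR on the compared groups alone gave 7 for PM in Acod1-/-, where 50.4% of all genes were called. For OI+PM against PM it gave 1 in WT and 7 in Acod1-/-, beside 17.3% and 51.6%. Against vehicle, OI+PM gave 4 in WT and 6 in Acod1-/-, beside 45.3% and 74.4%, and these 6 were 5 higher and 1 lower. For genotype with vehicle it gave 3, beside 20.6%. Total count scaling gave 3 for OI+PM against PM in Acod1-/-, beside 34.1% of all genes. It moved the median of all genes by -0.13 for OI+PM against PM in WT. For OI+PM against vehicle it moved that median by -0.22 in WT and -0.15 in Acod1-/-. For genotype with OI+PM, DESeq2, no filter and the length correction without and with the replicate block each gave 3. Of all genes these fits called 11.8%, 9.36%, 15.4% and 16.9%, in that order. Without a filter, the numbers were 1 for genotype with vehicle and 2 for the interaction with OI, beside 1.72% and 0.232% of all genes. For OI+PM against vehicle in Acod1-/- that fit called 5, 4 higher and 1 lower, beside 26.6%. Its median prior degrees of freedom were infinite, so the median gene kept no spread of its own. Over all genes, edgeR on the compared groups alone called 5658 against 2684 for PM in Acod1-/-, 1939 against 4926 for OI+PM against PM in WT, 8351 against 5547 for OI+PM against vehicle in Acod1-/-, and 2316 against 205, 174 against 269 and 2 against 782 for genotype with vehicle, PM and OI+PM. DESeq2 called 434 and 1321 for genotype with PM and OI+PM, and 3 and 34 for the interactions against 0, and the length correction called 375, 590 and 1724 for genotype and 21 for the interaction with OI. No filter gave 429, 694 and 2339 for genotype and 5 and 58 for the interactions. Without 1 library, PM called as few as 1187 genes against 2782 in WT and 1391 against 2684 in Acod1-/-. With OI+PM, genotype calls were 5452 without WT replicate 1, 404 without WT replicate 2 and 95 and 101 without either Acod1-/- library. The cause of the other changes was not tested.

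Among the genes named, the direction turned for values without a call and for Slc39a1 with OI+PM against vehicle in WT. For Mtf1 with PM, the length correction gave 0.02 in WT (0.01 with the block) and 0.09 in Acod1-/- (0.09 with the block). For OI+PM against vehicle in WT, Mtf1 was 0.00 by DESeq2, RLE scaling or no filter, -0.01 on the compared groups alone, -0.21 with total count scaling, 0.24 with the length correction (a call), -0.04 with the filter in all 12 libraries, and -0.11 to 0.11 without a library (-0.05 without vehicle replicate 2), and Slc30a4 was -0.01, -0.21, -0.04, 0.00 with the replicate block, and -0.17 to 0.16 without a library (-0.02 without vehicle replicate 2). With total count scaling, Mtf1 in Acod1-/- was -0.10, Slc39a1 was -0.05 in both genotypes and Slc39a14 in WT -0.01. The length correction gave -0.09 for Slc39a1 in WT and -0.04 in Acod1-/-. Leaving out a library gave -0.14 to 0.50 for Slc39a10 with OI in WT, -0.36 to 0.09 for Mt2 and -0.09 to 0.36 for Slc39a10 between the genotypes with PM, and -0.89 to 0.04 for the interaction of Mt1 with OI.

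Same-numbered replicates deviated together with correlations of 0.73 for OI+PM and PM in WT and of -0.41 to 0.25 in the other pairs of groups, with 2 pairs each, so the numbers were not taken as pairing the libraries. The replicate block left 6, 6, 5, 5, 5 and 4 members past the threshold in the 6 treatment comparisons, as without it. Of all genes it called 27.4%, 25.5%, 45.7%, 35.6%, 66.6% and 51%, in the same order. It left 0 members in every genotype comparison, beside 1.71%, 2.27% and 7.84% of all genes, and in every interaction, beside 0%. When replicates 1 and 2 of Acod1-/- with PM were swapped in the block, an alternative chosen after seeing the data, 394 of all genes and 0 members passed between the PM-treated genotypes, against 255 and 0 with the block as numbered.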
